A study of Mus musculus with 20 samples.

Results

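Glutathione S-transferases were described in mouse liver as a set of 10 genes, chosen by their symbols from the 36128 genes of the FPKM table. Gsta1, Gsta2, Gsta3 and Gsta4 encode alpha class enzymes, Gstm1, Gstm2 and Gstm3 mu class enzymes, Gstp1 and Gstp2 pi class enzymes, and Gstt3 a theta class enzyme. All 10 genes had counts in both strains and entered every comparison. The livers came from 20 mice at 8 weeks of age, 5 males and 5 females of C57BL/6J, called B6 here, and as many of CAST/EiJ, called CAST. B6 is a classical laboratory strain and CAST a strain derived from wild mice. The labels name no transgene, deletion or treatment, and each strain is a single inbred genotype. Whole-liver polyA RNA of each mouse was 1 library, sequenced as paired reads of 50 nt.

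Cytosolic glutathione S-transferases join glutathione to electrophilic compounds, which makes those compounds more soluble and easier to excrete. Hepatocytes hold them in large amounts, above all the alpha and mu classes, and in mice the pi class as well. The conjugates leave hepatocytes through membrane transporters and are trimmed and acetylated to mercapturates. Many of the genes respond to the oxidant-sensing factor Nrf2, and in rodents some follow the sex-dependent pattern of growth hormone secretion.

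Several members are near copies of each other, and this bears on their values, because the authors kept only uniquely mapped reads. The coding sequences of Gstp1 and Gstp2 were 98.1% identical and those of Gsta1 and Gsta2 97.5%, against 89.5% for Gstm1 and Gstm3, 86% for Gstm1 and Gstm2 and 84.8% for Gstm2 and Gstm3. Of all 50-base runs in the exons, 84.2% of those of Gstp2, 79.9% of Gstp1, 86.8% of Gsta1 and 43.2% of Gsta2 also occurred elsewhere in the NCBIM37 (mm9) genome. The shares were 33.5% for Gstm2, 25.1% for Gstm1, 13.2% for Gstm3, 0.807% for Gstt3 and 0% for Gsta3 and Gsta4. These are single runs within an exon of mm9, whereas reads were paired and CAST reads were mapped to a strain-specific genome. Of the runs found elsewhere, 336 of 338 of Gstp1 and 336 of 353 of Gstp2 occurred in the other member of the pair, but 148 of 462 of Gsta1 and 148 of 294 of Gsta2. For Gsta1, most of the runs found elsewhere thus lay outside the members described here. In the following coding stretches the bases that differ between the partners of a pair are in capitals. These stretches show where a read can tell the partners apart, but not whether it is unique in the genome. They lie on the minus strand at chr19:4036692-4036791 (Gstp1) and chr19:4040986-4041085 (Gstp2), on the plus strand at chr9:78089334-78089433 (Gsta1) and on the minus strand at chr9:78179926-78180025 (Gsta2), all in NCBIM37 and each within a coding exon. The Gstp stretches differed at 6 of 100 bases and the Gsta stretches at 5 of 100, and the longest run of coding bases without a difference was 303 bases in the Gstp pair and 196 in the Gsta pair.
Gstp1 coding stretch: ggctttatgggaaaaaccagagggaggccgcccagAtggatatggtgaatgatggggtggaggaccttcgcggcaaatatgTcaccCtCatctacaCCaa
Gstp2 coding stretch: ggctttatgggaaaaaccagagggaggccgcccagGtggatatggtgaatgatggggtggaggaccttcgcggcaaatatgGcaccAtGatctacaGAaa
Gsta1 coding stretch: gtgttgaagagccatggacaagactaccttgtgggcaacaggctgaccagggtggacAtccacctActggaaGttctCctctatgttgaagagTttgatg
Gsta2 coding stretch: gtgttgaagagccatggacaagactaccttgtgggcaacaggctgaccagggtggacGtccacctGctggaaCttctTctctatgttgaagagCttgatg

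In the annotation of NCBIM37 the members sit in 5 places. Gsta4 (chr9:78039773-78057155, plus strand), Gsta1 (chr9:78078463-78090491, plus strand) and Gsta2 (chr9:78178825-78203595, minus strand) are neighbours on chromosome 9, and Gsta3 is at chr1:21230670-21255442 on the plus strand. Gstm3 (chr3:107745251-107772201), Gstm2 (chr3:107784620-107789371) and Gstm1 (chr3:107815173-107820891) lie in a row on the minus strand of chromosome 3. Gstp1 (chr19:4035411-4037921) and Gstp2 (chr19:4040291-4042221) are adjacent on the minus strand of chromosome 19, and Gstt3 is at chr10:75236860-75244159 on the minus strand.

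The upstream sequences of the pairs are shown because partners with nearly the same coding sequence had unlike levels. RefSeq windows (GRCm38.p6) were held for 9 of the 10 members, all but Gsta4, and were placed in NCBIM37 by an exact single match. The 250 bases before the RefSeq start were 78.1% identical, over aligned windows, between Gstp1 (chr19:4037913-4038162, minus strand) and Gstp2 (chr19:4042222-4042471, minus strand). They were 69.7% identical between Gsta1 (chr9:78078226-78078475, plus strand) and Gsta2 (chr9:78194953-78195202, minus strand). The RefSeq start is the NCBIM37 gene's own start for Gstp2, lies a few bases inside the annotated gene for Gstp1 and Gsta1, and well inside it for Gsta2. Capitals mark matches, on either strand, to the AP-1 letters TGAGTCA or the STAT5 letters TTCNNNGAA. An AP-1 match began 74 bases before the start of Gstp1 and 89 bases before that of Gstp2, and 5.17% of 27025 promoter windows of 300 bases held one. A STAT5 match began 162 bases before the start of Gsta1 (8.47% of windows held one), and Gsta2 had none of these letters. Of the other windows, Gsta3 held a match to the antioxidant response element letters TGACNNNGC 121 bases before its start (12.5% of windows), and Gstm1, Gstm2, Gstm3 and Gstt3 matched none of the 3 motifs. A match is a description of letters and not of a bound site.
Gstp1 upstream: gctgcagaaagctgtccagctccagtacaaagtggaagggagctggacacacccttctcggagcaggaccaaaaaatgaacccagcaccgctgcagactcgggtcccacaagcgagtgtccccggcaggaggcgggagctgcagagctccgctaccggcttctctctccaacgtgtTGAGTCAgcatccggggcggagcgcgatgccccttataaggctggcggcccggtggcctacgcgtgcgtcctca
Gstp2 upstream: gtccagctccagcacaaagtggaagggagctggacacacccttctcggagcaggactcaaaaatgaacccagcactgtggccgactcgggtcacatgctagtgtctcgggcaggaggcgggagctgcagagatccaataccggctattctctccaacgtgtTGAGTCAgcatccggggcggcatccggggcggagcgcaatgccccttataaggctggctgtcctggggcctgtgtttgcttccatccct
Gsta1 upstream: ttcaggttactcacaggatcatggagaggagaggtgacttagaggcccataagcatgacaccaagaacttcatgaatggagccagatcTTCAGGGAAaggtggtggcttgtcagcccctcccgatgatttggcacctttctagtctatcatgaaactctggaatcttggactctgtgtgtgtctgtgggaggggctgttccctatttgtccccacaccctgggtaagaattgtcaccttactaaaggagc
Gsta2 upstream: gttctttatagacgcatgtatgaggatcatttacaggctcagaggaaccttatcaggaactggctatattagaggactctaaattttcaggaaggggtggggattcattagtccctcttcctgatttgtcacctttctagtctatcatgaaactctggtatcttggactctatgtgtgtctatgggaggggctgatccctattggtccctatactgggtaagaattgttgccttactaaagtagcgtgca

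Counts on genes summed to 7969482 to 35328573 per liver, with group medians of 16647476 (males) and 13794950 (females) for B6 and of 10256940 and 22974697 for CAST. Strain and sex follow the library titles. In all 5 CAST males and all 5 B6 females a separate strain entry goes against the title, while the column names of the deposited tables follow the titles. The 4 Y-linked genes of the sex check were listed at 0 in every liver, so they could not check the sex labels. The 5 hepatocyte markers were present in every liver, at a summed FPKM of 19310 to 20790 (males) and 24460 to 30220 (females) for B6 and of 16250 to 17990 and 19350 to 25450 for CAST. The medians of the 6 measured Kupffer cell markers were 20.5, 35.5, 7.50 and 8.97 in the same order, those of 5 endothelial markers 18.3, 23.5, 15 and 16.6, of 5 stellate cell markers 26.9, 34.8, 26.4 and 30.8, of 5 cholangiocyte markers 12.5, 11.5, 8.13 and 6.61, and of 5 lymphocyte markers 0.869, 1.45, 0.341 and 0.467. CAST female 5 stood above the other 4 CAST females for Kupffer cell (24.1 against 7.07 to 9.53), endothelial (34.2 against 13.8 to 18.6) and stellate cell markers (40.5 against 27.2 to 34.6). Without it 4 members passed for sex in CAST in place of 5. Gsta1 was lost, as it was without any other CAST female. The cholangiocyte marker Krt7 was listed at 0 in CAST livers, Krt19 in CAST males, the lymphocyte marker Ms4a1 in CAST livers and Nkg7 in CAST males. Globin genes were listed at 0 throughout, so the erythroid list rested on Alas2 (medians 29, 4.62, 2.14 and 1.25), and of the pancreas list Prss2 and Amy2a5 were at 0 throughout (medians 6.94, 5.05, 0.889 and 0.893). The part of these cell types in the results was not tested, and in whole liver fewer cells of a type and less RNA per cell cannot be told apart.

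Both CAST male 3 and CAST male 5 stood apart in these genes. CAST male 5 had the lowest FPKM of its group in 7 of the 10 members, with a median deviation of -0.83 on the log2(FPKM + 0.1) scale from the other 4 livers, while it was the lowest in 40.1% of 8747 genes that averaged 1 FPKM or more. CAST male 3 had the highest FPKM in 6 members and in 24.9% of these genes, and its median deviation in the members was 0.28. Members were counted at any level, those under 1 FPKM included. B6 female 2 was the lowest of its group in 7 members (-0.34) and in 34.4% of all such genes, CAST female 3 the lowest in 6 members (-0.16) and 24.6% of genes, and B6 female 5 the highest in 6 members (0.35) and 16.9% of genes.

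**Figure D1:**
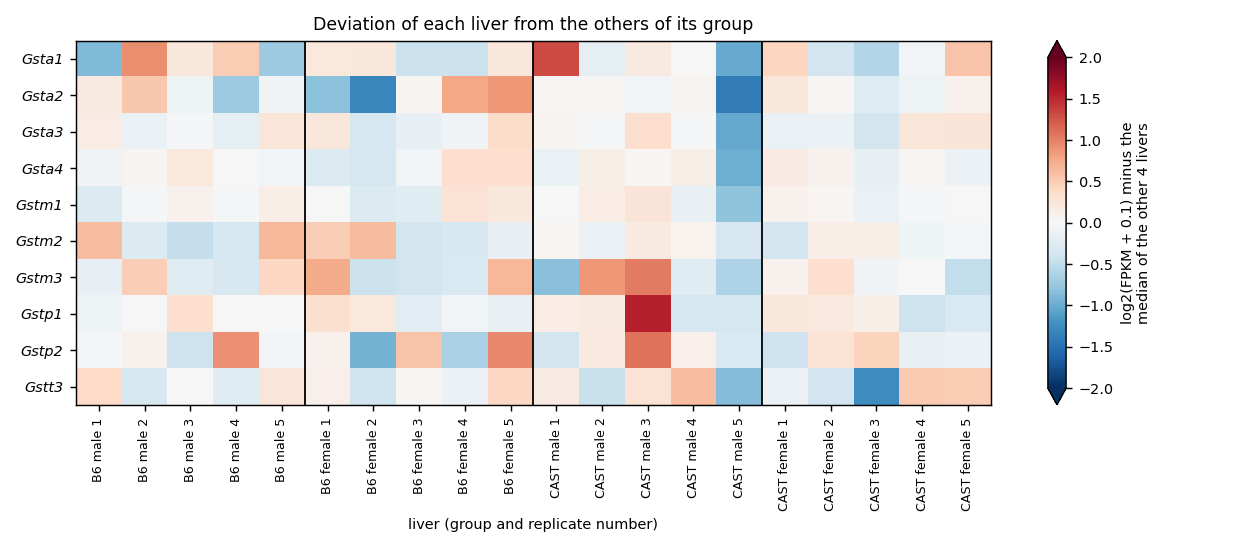
Deviation of each liver (columns, by group and replicate number) from the median of the other 4 livers of its group, on the log2(FPKM + 0.1) scale (colour), for the 10 members (rows). CAST male 5 is blue in most rows, with a median of -0.83, and CAST male 3 is red for Gstp1, Gstp2 and Gstm3.

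The 10 genes together were most abundant in B6 males. FPKM scales fragments to exon length and library size, so levels of different genes can be set side by side, but it does not correct for reads lost because they map to several places. Gsta1, Gstp2 and Gstp1 had the largest shares of exon runs that occur elsewhere, so their levels are subject to that limit. The levels of Gsta2 (43.2% of runs), Gstm2 (33.5%), Gstm1 (25.1%) and Gstm3 (13.2%) are subject to it as well. The same holds for the order of levels and the class shares that include any of these genes. For B6 the summed FPKM of the members, as mean ± SD of 5 livers, was 1339 ± 88.9 in the males and 756 ± 85.7 in the females, and for CAST it was 777 ± 250 and 546 ± 42.6. B6 males (1252 to 1458) did not overlap B6 females (655 to 860), whereas CAST males (477 to 1169) overlapped CAST females (474 to 581) through CAST male 5 alone, the other 4 males lying above all females. Pi class mRNA made up 39.0% of the sum in B6 males and 31.2% in CAST males, but 7.12% and 8.65% in the females. Alpha class mRNA made up 41.9% (B6) and 44.9% (CAST) in the females, against 27% and 25.3% in the males. The mu class share was 33.3% (males) and 47.1% (females) for B6 and 42.7% and 38.4% for CAST, and the theta gene Gstt3 made up 0.653% and 0.872% in B6 and CAST males against 3.89% and 8.08% in the females. These shares are descriptions, with no test.

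**Figure D2:**
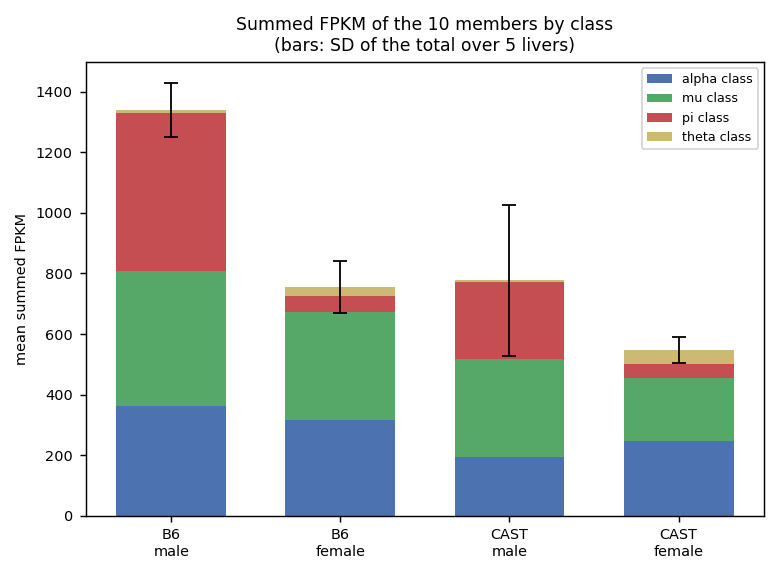
Mean summed FPKM of the 10 members (vertical axis) in the 4 groups, stacked by class, with the SD of the total over 5 livers as bars. The pi class block is tall in both male groups (523 and 253) and short in both female groups (53.3 and 46.8).

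The order of the levels differed between groups. In B6 males Gstp1 (521 ± 62.8 FPKM) was above Gstm1 (402 ± 37.2) and did not overlap it, and the ranges of Gstm1 and Gsta3 (326 ± 30.2) overlapped. In B6 females Gstm1 (316 ± 39.9) and Gsta3 (291 ± 44.5) led and overlapped, and Gstp1 (53.0 ± 6.51) came next, apart from Gsta3. In CAST males Gstm1 (278 ± 63.2) and Gstp1 (248 ± 155) overlapped, and Gsta3 (125 ± 36.2) overlapped Gstp1 only through CAST male 3. In CAST females Gstm1 (179 ± 9.08) and Gsta3 (174 ± 23.7) led and overlapped, and the ranges of Gstt3 (44.9 ± 16), Gstp1 (44.7 ± 6.39) and Gsta2 (42.6 ± 4.56) below them overlapped in turn. Gsta1 was the lowest member in all 4 groups, at a mean of 0.0209 to 0.352 FPKM. A member of low level, such as Gsta1 or Gstp2, is also the one whose counts carry the largest counting error.

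**Figure D3:**
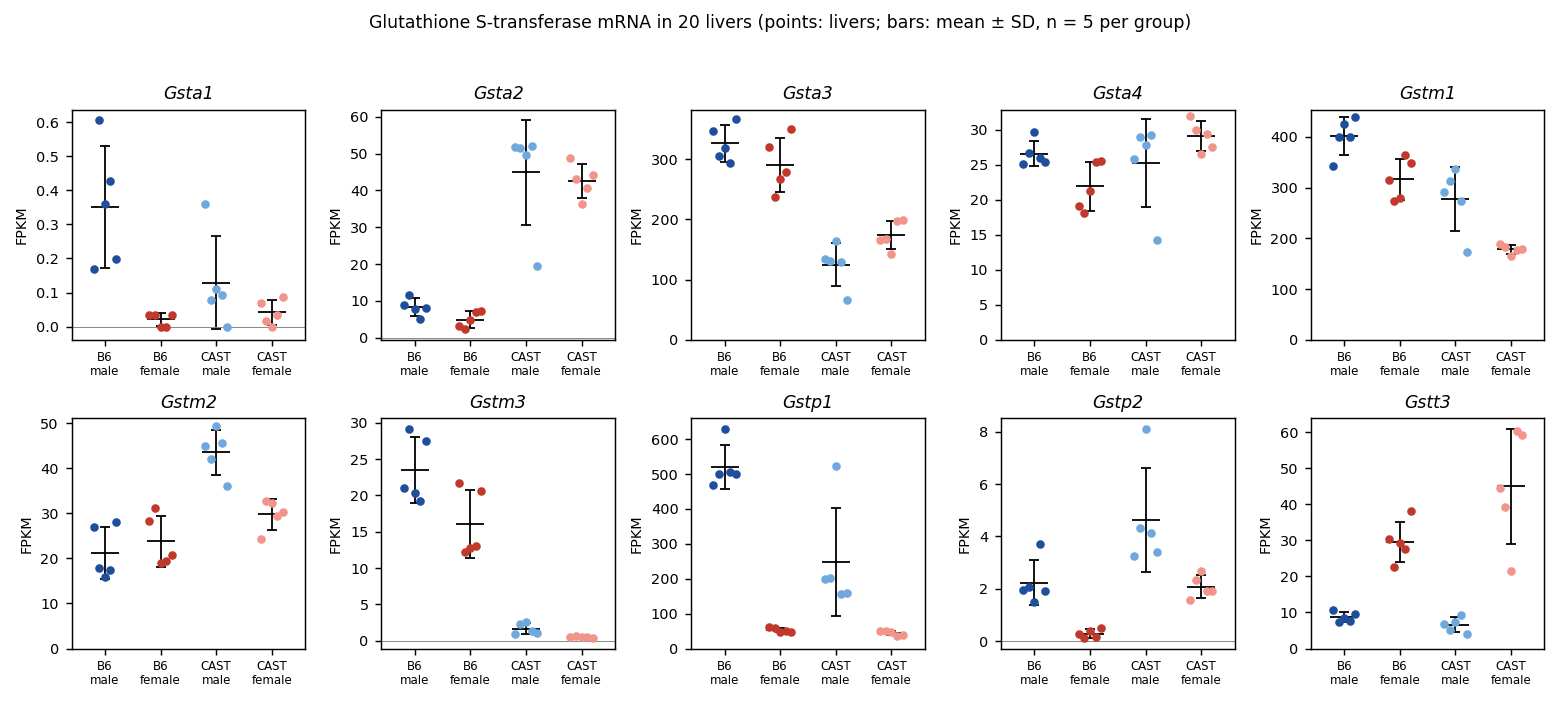
FPKM (vertical axes, each from 0 and with its own scale) of the 10 members in the 4 groups, with 1 point per liver and bars for mean ± SD (n = 5). Gstp1 and Gstp2 sit higher in males of both strains, Gstt3 higher in females, and Gstm3 is near 0 in CAST.

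The first comparison asked how males and females differ within each strain. In B6, 4 of the 10 members passed a fold change above 2 with an adjusted p under 0.05 (edgeR quasi-likelihood test), 3 higher in males (Gstp1, Gstp2 and Gsta1) and 1 higher in females (Gstt3), against 2.4% of 25690 genes (1.16% higher and 1.24% lower in males). In CAST, 5 passed, 4 higher in males (the same 3 and Gstm3) and 1 higher in females (Gstt3), against 2.05% of 24722 genes (0.882% higher and 1.17% lower in males). With the adjusted p alone the counts were 4 in B6 (7.55% of genes) and 8 in CAST (5.65%). The FPKM ranges of males and females did not overlap for 4 members in B6 (14.7% of 8753 genes that averaged 1 FPKM or more) and for 5 in CAST (12.2% of 8711). The members were counted at any level. Gsta1, among the 4 in B6, averaged 0.352 FPKM in males and 0.0209 in females, under that limit. The median log2 fold change, male minus female, of the members was 0.43 in B6 and 0.51 in CAST, against 0.020 and -0.009 over all genes tested.

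Gstp1, the main pi class enzyme of mouse liver, was the most male-biased abundant member. Its FPKM in B6 males 1 to 5 was 469, 500, 630, 505 and 500, and in B6 females 61.9, 57.5, 46.3, 50.6 and 48.7. Every B6 male was far above every B6 female, and the fold change was 9.5 (log2 3.25 ± 0.11 SE, adjusted p = 4.95e-13, edgeR). In CAST males it was 199, 202, 522, 157 and 160 FPKM, and in CAST females 50.3, 49.6, 47.8, 36.4 and 39.2. The CAST groups did not overlap either, with CAST male 3 above the other males by itself, and the fold change was 5.26 (log2 2.40 ± 0.26, adjusted p = 4.83e-06, edgeR). Without CAST male 3 the log2 fold change was 1.92 ± 0.12 (adjusted p = 1.4e-09).

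Gstp2, its near-identical neighbour, was expressed at a small fraction of the level. In B6 males it was at 1.95, 2.08, 1.48, 3.73 and 1.94 FPKM, and in B6 females at 0.277, 0.120, 0.374, 0.169 and 0.520, from 60 to 131 counts in males and 3 to 13 in females. The groups did not overlap, and the fold change was 8.57 (log2 3.10 ± 0.30, adjusted p = 1.39e-06, edgeR). In CAST males it was at 3.24, 4.32, 8.11, 4.12 and 3.40 FPKM, and in CAST females at 1.58, 2.35, 2.67, 1.91 and 1.93. Again all males were above all females, at a smaller fold change of 2.16 (log2 1.11 ± 0.23, adjusted p = 0.00481, edgeR), which without CAST male 3 was 0.79 ± 0.18 on the log2 scale (adjusted p = 0.0128) and so below a fold of 2, and which was 0.82 by limma on log2(FPKM + 1) (adjusted p = 0.0525).

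As a share of the counts of the Gstp pair, Gstp2 had a median of 0.512% in B6 males (0.353% to 0.764%) and 0.515% in B6 females (0.21% to 1.07%), so the B6 ranges overlapped. The median share was 2.12% in CAST males (1.57% to 2.61%) and 4.74% in CAST females (3.11% to 5.34%), and these ranges did not overlap. How many Gstp2 counts were Gstp1 reads was not tested. With both genes summed, as 1 feature, the log2 fold change was 3.25 ± 0.11 in B6 and 2.36 ± 0.26 in CAST.

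Gsta1, an alpha class gene that is barely expressed in untreated liver, rested on very few reads. Its counts in B6 males were 8, 35, 12, 15 and 7, and in B6 females 1, 1, 0, 0 and 1, where a count of 0 allows up to 3. All B6 males were above all B6 females (0.169 to 0.607 against 0 to 0.0349 FPKM), and the log2 fold change was 3.85 ± 0.66 (adjusted p = 0.00102, edgeR). From the summed counts, 77 against 3, the ratio scaled to library totals was 17.2, with an exact 95% interval from 5.67 to 85.2 that covers counting error only. By limma on log2(FPKM + 1) the difference was 0.40 (adjusted p = 0.0151), below a fold of 2, and edgeR's filterByExpr removed the gene in both strains.

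In CAST males the counts of Gsta1 were 6, 3, 51, 2 and 0, and in CAST females 4, 1, 0, 1 and 2. CAST males 1 and 3 were above every female by counts and CAST males 1, 3 and 4 by FPKM (highest female 0.0866), while the other males overlapped the females, and the log2 fold change was 3.34 ± 0.95 (adjusted p = 0.0448, edgeR). The 51 counts of CAST male 3 go against its FPKM of 0.110: at the ratio of FPKM to counts in the other livers, this FPKM would be about 4 counts. Without CAST male 3 the log2 fold change was 1.47 ± 0.94 (adjusted p = 0.474), and the ratio of summed counts was 2.7 (0.988 to 7.73) in place of 11.6 (5.54 to 28.1). The difference passed in 3 of the 10 fits that left out a CAST liver, and did not pass without any 1 of the females, CAST male 1 or CAST male 3. It also did not pass by edgeR's exact test (adjusted p = 0.0512) or by limma on log2(FPKM + 0.1) (log2 0.55, adjusted p = 0.502).

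Its near copy Gsta2, an alpha class enzyme at a higher level, did not pass the test in either strain. It was at 9.00, 11.6, 7.89, 5.12 and 8.00 FPKM in B6 males and at 3.24, 2.28, 4.89, 6.85 and 7.35 in B6 females. These ranges overlapped, with a log2 difference of 0.80 ± 0.25 (adjusted p = 0.0665, edgeR). By DESeq2 the difference was 0.77 (adjusted p = 0.046), below a fold of 2, while edgeR's exact test gave an adjusted p of 0.0556. In CAST the log2 difference was -0.03 ± 0.17 (adjusted p = 0.943). Summed with Gsta1, the pair differed in B6 by 0.85 ± 0.25 (adjusted p = 0.0455), below a fold of 2. In CAST the pair differed by -0.02 ± 0.17 (adjusted p = 0.964). The sum does not recover reads that were lost because they map to several places.

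Gstt3, a theta class enzyme, was the female-biased member. Its FPKM in B6 males was 10.6, 7.24, 8.60, 7.63 and 9.57, and in B6 females 30.4, 22.5, 29.3, 27.5 and 38.1. All females lay above all males, by 3.33-fold (log2 -1.74 ± 0.13, male minus female, adjusted p = 7.13e-08, edgeR). In CAST males it was 6.94, 5.24, 7.37, 9.28 and 3.90 FPKM, and in CAST females 44.6, 39.2, 21.4, 60.4 and 59.2. The CAST groups were also apart, with CAST female 3 the lowest female, and the fold was 7.19 (log2 -2.85 ± 0.23, adjusted p = 1.11e-07, edgeR). Only 0.807% of its exon 50-base runs occur elsewhere in the genome and 0 in another member.

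Of the mu class genes, Gstm3 passed both limits for sex in CAST, and Gstm1 and Gstm2 the adjusted p alone. Gstm3 was at 0.948, 2.30, 2.62, 1.34 and 1.11 FPKM in CAST males and at 0.575, 0.709, 0.531, 0.548 and 0.372 in CAST females. All males were above all females, at 2.63-fold (log2 1.40 ± 0.27, adjusted p = 0.00309, edgeR), though at levels near the lowest of the family. By limma on log2(FPKM + 1) the difference was 0.74 (adjusted p = 0.0431), below a fold of 2. In B6, where Gstm3 was at 19.3 to 29.2 FPKM in males and 12.2 to 21.7 in females, the ranges overlapped and the log2 difference was 0.56 ± 0.17 (adjusted p = 0.0510). The adjusted p was under 0.05 by DESeq2 (0.0347), edgeR's exact test (0.0404) and library size scaling (0.0409). It was above 0.05 with DESeq2 size factors (0.058), filterByExpr (0.0703), the fit of all 20 livers (0.0954) and limma (0.0504 to 0.132). Gstm2 was at 44.9, 42.0, 49.3, 45.6 and 36.0 FPKM in CAST males and at 24.2, 32.7, 32.2, 29.4 and 30.2 in CAST females. The groups did not overlap, but the difference was below a fold of 2 (log2 0.47 ± 0.10, adjusted p = 0.00652, but 0.106 in the fit of all 20 livers), and in B6 it was -0.14 ± 0.18 (adjusted p = 0.714). Gstm1, the most abundant mu class gene, was at 173 to 338 FPKM in CAST males and 165 to 189 in CAST females (log2 0.55 ± 0.13, adjusted p = 0.0116, but 0.0744 by limma on log2(FPKM + 0.1)), with CAST male 5 as the only male within the female range. In B6 the log2 difference of Gstm1 was 0.29 ± 0.11 (adjusted p = 0.109).

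The other alpha class genes did not pass the fold limit for sex. Gsta3, which in mice detoxifies aflatoxin epoxide, was at 294 to 367 FPKM in B6 males and 237 to 350 in B6 females (log2 0.19 ± 0.11, adjusted p = 0.336). In CAST it was lower in males, at 135, 131, 164.1, 130 and 65.4 FPKM against 166, 167, 142, 197 and 198 in females. The ranges overlapped through CAST male 3 and CAST female 3, and the log2 difference was -0.56 ± 0.16 (adjusted p = 0.0486). Leaving out a liver gave adjusted p values of 0.0125 to 0.119, and the difference did not pass by edgeR's exact test (0.0509), with DESeq2 size factors (0.0569), filterByExpr (0.068) or library size scaling (0.113), or by limma on log2(FPKM + 0.1) (0.255). Gsta4, which acts on the lipid peroxidation product hydroxynonenal, differed by 0.30 ± 0.097 in B6 (adjusted p = 0.0684) and by -0.28 ± 0.14 in CAST (adjusted p = 0.286), and its ranges overlapped in both strains.

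**Figure D4:**
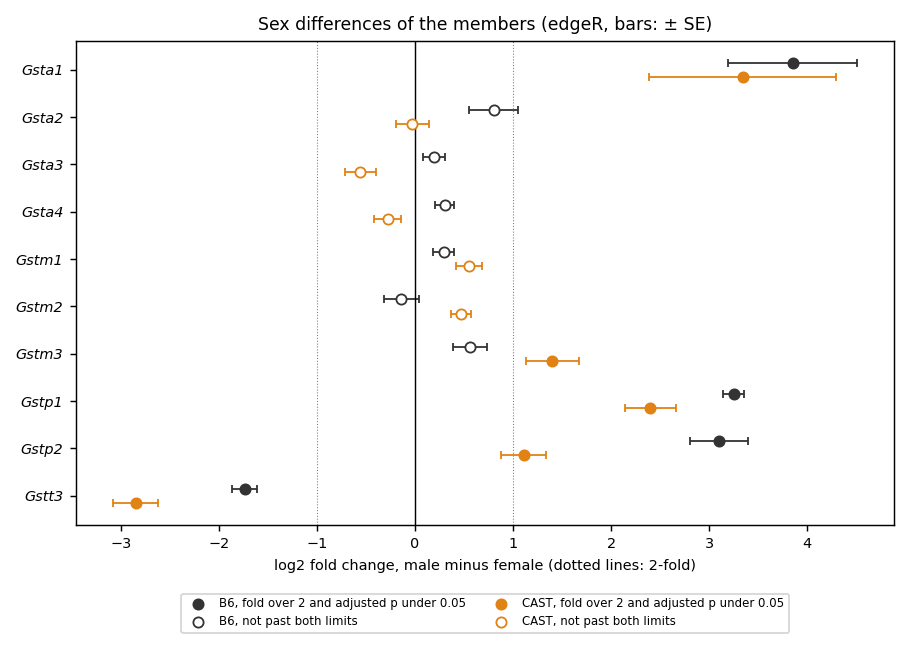
Log2 fold change, male minus female (horizontal axis), of the 10 members in B6 and CAST, with bars for ± SE and filled points for genes past a fold of 2 and an adjusted p under 0.05. Gsta1, Gstp1 and Gstp2 lie to the right and Gstt3 to the left of the 2-fold lines in both strains, while Gsta1 in CAST depends on CAST male 3.

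Whether the sex difference itself differed between strains was tested by the interaction of strain and sex in a fit of all 20 livers. The interaction passed an adjusted p under 0.05 for 2 members, against 2.28% of 25779 genes, and its median over the members was 0.68, against 0.049 over all genes. For Gstp2 the log2 difference of the sex differences, B6 minus CAST, was 2.0 ± 0.41 (adjusted p = 0.00763, edgeR): the male excess was larger in B6, where females had few counts. It passed in all 20 fits that left out a liver, but the summed counts of Gstp1 and Gstp2 gave 0.90 ± 0.32 (adjusted p = 0.153), and limma gave adjusted p values of 0.0501 on log2(FPKM + 0.1) and 0.436 on log2(FPKM + 1). For Gstt3 it was 1.12 ± 0.29 (adjusted p = 0.0363, edgeR), the female excess being larger in CAST, but it passed in 6 of 20 such fits (without B6 male 2 or 4, B6 female 5, CAST male 3 or 4, or CAST female 3), with adjusted p values up to 0.0811, and not with DESeq2 size factors (adjusted p = 0.0532) or by limma on log2(FPKM + 0.1) (0.183). For Gstp1 it was 0.86 ± 0.32 (adjusted p = 0.182), and without CAST male 3 it was 1.34 ± 0.17 (adjusted p = 2.32e-05). Gsta3 had 0.75 ± 0.22 (adjusted p = 0.0636), and 0.88 on the log2 scale without CAST male 3 (adjusted p = 0.0229) and 0.83 without B6 female 5 (adjusted p = 0.0446). For the other 6 members the adjusted p was 0.0955 or more, Gsta1, Gsta2 and Gstm3 included.

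The next comparison set the strains side by side within each sex. In males 5 of the 10 members passed a fold above 2 with an adjusted p under 0.05, 3 higher in B6 (Gstm3, Gsta3 and Gstp1) and 2 higher in CAST (Gsta2 and Gstm2), against 23.8% of 25779 genes (13.4% higher and 10.4% lower in B6). In females 3 passed, Gstm3 higher in B6 and Gsta2 and Gstp2 higher in CAST, against 24.4% (13.9% higher and 10.4% lower in B6). With the adjusted p alone 7 members passed in each sex, against 38.4% of genes in males and 39.9% in females. The FPKM ranges did not overlap for 5 members in males and 6 in females, against 43.6% of genes that averaged 1 FPKM or more in each sex. The members were again counted at any level, and Gsta1, under 1 FPKM, overlapped in both sexes. The median log2 fold change, B6 minus CAST, was 0.27 in males and -0.45 in females, against 0.069 and 0.002 over all genes. Reads of the strains were mapped to different genomes, so a strain difference in RNA and in how reads map cannot be told apart, above all for the near copies.

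Gstm3 showed the largest strain difference among the members in both sexes. Its FPKM in B6 males was 21.1, 29.2, 20.4, 19.3 and 27.5, against 0.948 to 2.62 in CAST males, a 13.3-fold difference (log2 3.74 ± 0.24, adjusted p = 1.46e-13, edgeR). In B6 females it was 21.7, 12.2, 12.8, 13.1 and 20.6, against 0.372 to 0.709 in CAST females, a 23.9-fold difference (log2 4.58 ± 0.26, adjusted p = 8.21e-15). Every B6 liver was above every CAST liver. The neighbouring mu class gene Gstm2 lay the other way, at 15.8 to 28.1 FPKM in B6 males against 36.0 to 49.3 in CAST males, without overlap. Its log2 difference in males was -1.0 ± 0.16 (adjusted p = 1.14e-05, edgeR), at the fold limit itself, so that it fell below the limit in 5 of the 20 fits without a liver (those without B6 male 2, 3 or 4 or CAST male 3 or 4, lowest size -0.91). In females it was -0.40 ± 0.16 (adjusted p = 0.0504). Gstm1 was higher in B6 by 0.50 ± 0.13 in males and by 0.74 ± 0.13 in females (adjusted p = 0.00243 and 2.71e-05), below a fold of 2 and without overlap in either sex.

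In the alpha class, Gsta2 and Gsta3 differed in opposite directions. Gsta2 was at 51.7, 51.5, 49.5, 52.2 and 19.5 FPKM in CAST males, against 5.12 to 11.6 in B6 males, so that even CAST male 5 was above all B6 males. The fold was 5.13 (log2 -2.36 ± 0.24, B6 minus CAST, adjusted p = 4.69e-09, edgeR). In females it was at 48.8, 43.0, 36.4, 40.8 and 44.2 in CAST, against 2.28 to 7.35 in B6, a 9.20-fold difference (log2 -3.20 ± 0.26, adjusted p = 2.99e-11). Gsta3 was at 346, 304, 319, 294 and 367 FPKM in B6 males and at 65.4 to 164.1 in CAST males, 2.67-fold apart (log2 1.41 ± 0.16, adjusted p = 1.55e-08), and in females the log2 difference was 0.66 ± 0.15 (adjusted p = 9.24e-04). The Gsta3 groups did not overlap in either sex. Gsta4 differed in males by 0.09 ± 0.13 (adjusted p = 0.601), or -0.07 without CAST male 5. In females it was lower in B6 than in CAST (-0.50 ± 0.13, adjusted p = 0.00295, without overlap).

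For Gsta1 the sign of the strain difference in males turned with CAST male 3. The log2 difference was -0.16 ± 0.64 (adjusted p = 0.878), and without CAST male 3 it was 1.76 ± 0.65 (adjusted p = 0.036). On the FPKM values, in which CAST male 3 is not high, the difference was 1.07 on the log2(FPKM + 0.1) scale (limma, adjusted p = 0.0134). In females it was -0.69 ± 1.4 (adjusted p = 0.729), from 3 counts in all B6 females and 8 in all CAST females.

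The pi class genes passed the fold limit for strain in 1 sex each. Gstp1 was higher in B6 males than in CAST males by 2.03-fold (log2 1.02 ± 0.22, adjusted p = 5.42e-04, edgeR). The groups overlapped because CAST male 3, at 522 FPKM, was within the B6 range, and the other CAST males were at 157 to 202. Without CAST male 3 the log2 difference was 1.5 ± 0.13 (adjusted p = 1.53e-10), while it was 0.88 without CAST male 5, and it was below a fold of 2 in 9 of the 20 fits without a liver (B6 male 3 or 5, CAST male 1, 2, 4 or 5, or CAST female 2, 3 or 4). In females the log2 difference of Gstp1 was 0.16 ± 0.23 (adjusted p = 0.605). Gstp2 was lower in B6 females than in CAST females by 7.39-fold (log2 -2.89 ± 0.33, adjusted p = 2.81e-08, edgeR), without overlap, and in males by 1.84-fold (log2 -0.88 ± 0.24, adjusted p = 0.0038), with overlap. It passed the fold limit in males without B6 male 4 (log2 -1.03), and was -0.56 without CAST male 3.

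Gstt3 stayed below the fold limit for strain in both sexes. The log2 difference, B6 minus CAST, was 0.45 ± 0.21 in males (adjusted p = 0.0927, and 0.29 to 0.60 with a liver left out) and -0.67 ± 0.20 in females (adjusted p = 0.00814), where the ranges overlapped through CAST female 3.

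**Figure D5:**
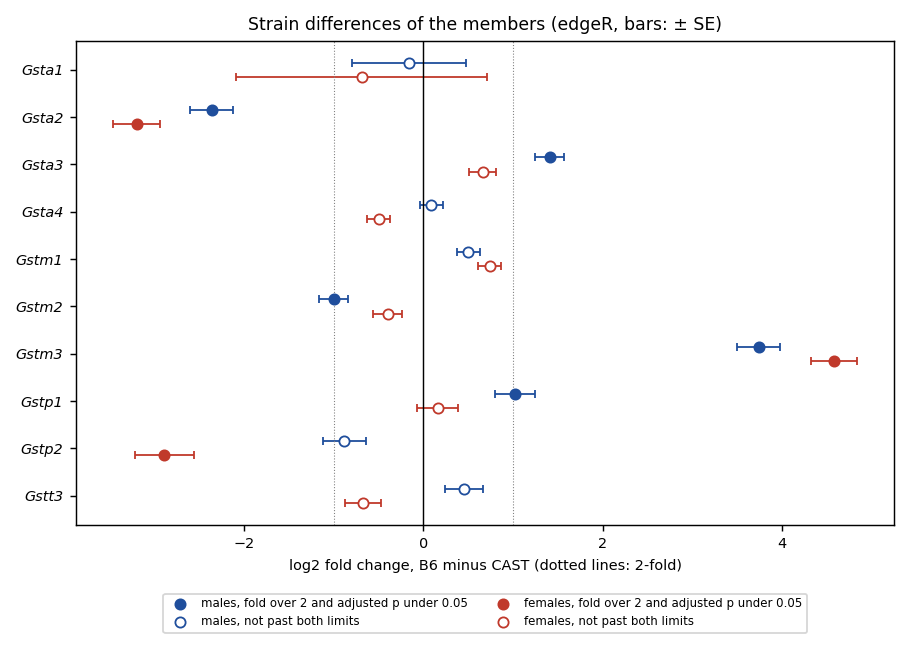
Log2 fold change, B6 minus CAST (horizontal axis), of the 10 members in males and females, with bars for ± SE and filled points for genes past a fold of 2 and an adjusted p under 0.05. Gstm3 is far to the right in both sexes and Gsta2 far to the left, and Gstp2 is left of the 2-fold line in females.

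The genes whose profile over the 20 livers was closest to that of a member were sought among 8885 other protein-coding genes, for the members that passed for sex in both strains. The measure was the root-mean-square difference of centred log2(FPKM + 0.1), in which 0 would be an identical profile. Closest to Gstp1 were Mup12 (0.58), a major urinary protein gene, Nudt7 (0.64), a peroxisomal nucleotide hydrolase, and Hsd3b5 (0.69), a male-biased steroid reductase. Mup12 had mean FPKM of 9.72 (males) and 1.10 (females) in B6 and of 5.56 and 1.24 in CAST. Closest to Gstp2 were Cyp7b1 (0.61), an oxysterol hydroxylase, Slc41a2 (0.63), a magnesium transporter, and Dpy19l3 (0.68), a mannosyltransferase. Cyp7b1 had mean FPKM of 87.7, 7.83, 212 and 96.5 in the same order, which like Gstp2 was highest in CAST males and lowest in B6 females. Closest to Gstt3 were Acot4 (0.40), an acyl-CoA thioesterase, Fmo2 (0.43), a flavin-containing monooxygenase, and Sall1 (0.62), a zinc finger protein. Acot4 had mean FPKM of 3.06, 10.9, 3.05 and 13.9. For Gsta1 the closest were Scp2 (0.49), a sterol carrier protein, Mettl1 (0.57), an RNA methyltransferase, and Ugt2b35 (0.58), a glucuronosyltransferase, but at this level the pseudocount sets much of the Gsta1 profile.

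The rest of the family was compared by a list of 15 other glutathione S-transferase genes. In B6 0 passed for sex with a fold above 2 by edgeR's quasi-likelihood test, DESeq2, edgeR's exact test or limma, while 3 had an adjusted p and 6 an unadjusted p under 0.05 in the first, and the median log2 difference was -0.08. In CAST 3 of 14 tested passed, beside 2.05% of all genes (2.4% in B6). These were Mgst2, a microsomal enzyme, higher in males (log2 1.41 ± 0.14, adjusted p = 1.97e-06), and the theta genes Gstt1 (-2.31 ± 0.16, adjusted p = 1.01e-08) and Gstt2 (-1.58 ± 0.14, adjusted p = 2.97e-07), higher in females, like Gstt3. In B6 Gstt1 differed by -0.59 ± 0.13 and Gstt2 by -0.23 ± 0.23. The interaction passed for both (1.73 ± 0.22, adjusted p = 1.6e-05, and 1.37 ± 0.31, adjusted p = 0.0138), 2 of 15, beside 2.28% of all genes. By strain 5 of 15 passed in males and 6 in females, beside 23.8% and 24.4% of all genes. Gstt1 was at 70.3 ± 14.7 FPKM (SD, n = 5) in B6 males against 1.63 ± 0.226 in CAST males, and at 107 ± 9.98 against 7.70 ± 1.75 in females. Mgst2 was nearly absent in B6, at 0.0450 ± 0.0229 FPKM in males against 14.1 ± 1.81 in CAST males, and the omega gene Gsto2 was at 0.0517 ± 0.0318 against 0.960 ± 0.0920. Gstt2 (higher in B6) and Mgst3 (higher in CAST) also passed in males, and Mgst3, Gsto2 and Gstm7 (higher in CAST) and Gstm5 (higher in B6) in females.

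The lists of genes that make, restore and use glutathione held 6 genes of glutathione synthesis, 7 of glutathione reduction and NADPH supply and 7 peroxidase and related genes. Over all genes 2.4% passed for sex in B6 and 2.05% in CAST. For sex with a fold above 2, 0 of each list passed in either strain by edgeR's quasi-likelihood test, DESeq2, edgeR's exact test or limma. By the first, 0, 1 and 1 genes had an adjusted p under 0.05 in each strain, and 0, 3 and 2 genes in B6 and 2, 1 and 3 in CAST an unadjusted p under 0.05. By strain, Cth, which makes cysteine from cystathionine, was higher in CAST (log2 -1.60 ± 0.17 in males and -2.05 ± 0.17 in females, adjusted p = 7.91e-09 and 6.74e-11). Slc7a11, the cystine transporter, was listed at 0 in all CAST livers and at a mean of 0.0177 FPKM in B6 males and 0.00896 in B6 females. Me1, which supplies NADPH, was higher in B6 males than in CAST males (log2 1.21 ± 0.14, adjusted p = 4.3e-08), and the peroxidase gene Gpx7 in B6 females than in CAST females (log2 1.32 ± 0.34, adjusted p = 0.00224). The interaction passed for 0 genes of these 3 lists by edgeR, DESeq2 or limma, with 0, 3 and 2 at an unadjusted p under 0.05 in edgeR.

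Of 16 genes of conjugate export and the mercapturate pathway, 2 passed for sex in each strain (in CAST 1 by limma on log2(FPKM + 0.1)), beside 2.4% of all genes in B6 and 2.05% in CAST. Abcg2, an export pump, was higher in males of both strains (log2 1.16 ± 0.086 in B6, adjusted p = 5.12e-08, and 1.09 ± 0.099 in CAST, adjusted p = 4.26e-07). Nat8, the enzyme that acetylates cysteine conjugates, was higher in males in B6 (4.65 ± 1.35 FPKM against 0.188 ± 0.0678, log2 4.62 ± 0.29, adjusted p = 5.83e-09) but not in CAST (13.2 ± 2.26 against 14 ± 1.23, adjusted p = 0.472), with an interaction of 4.79 ± 0.32 (adjusted p = 1.28e-10). The pump gene Abcc4 was higher in CAST females (log2 -2.28 ± 0.46, adjusted p = 0.00404, but 0.122 by limma) at 0.322 ± 0.258 FPKM, and its interaction (2.07 ± 0.56, adjusted p = 0.048, but 0.269 by limma) and that of Anpep, an aminopeptidase (-0.49 ± 0.13, adjusted p = 0.0336), also passed. By strain 3 of 16 passed in each sex, beside 23.8% of all genes in males and 24.4% in females. Nat8 (log2 -1.50 ± 0.17 in males and -6.29 ± 0.26 in females) and Ggct, which cleaves glutamyl dipeptides (-1.72 ± 0.17 and -1.45 ± 0.16), were higher in CAST in both sexes, with adjusted p values of 2.79e-08 or less. Abcc4 was higher in B6 males (1.39 ± 0.43, adjusted p = 0.0107, but not past the threshold by limma) and the pump gene Abcc3 in B6 females (1.14 ± 0.17, adjusted p = 2.04e-06).

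Of 9 Nrf2 target genes outside the family, 1 passed for sex in B6, beside 2.4% of all genes (2.05% in CAST). In CAST 0 of 8 tested passed by edgeR's quasi-likelihood test, DESeq2, edgeR's exact test or limma, with 0 at an adjusted p and 3 at an unadjusted p under 0.05 in the first. Nqo1, a quinone reductase, was lower in B6 males (1.20 ± 0.251 FPKM) than in B6 females (2.74 ± 0.421), at a log2 difference of -1.17 ± 0.16 (adjusted p = 1.58e-04). Ugdh, which makes UDP-glucuronate, was higher in B6 males (log2 0.80 ± 0.11, adjusted p = 9.99e-05), below a fold of 2, and the list median was 0.10 with 3 of 9 at an adjusted p under 0.05. The interaction passed for 2 of 9, beside 2.28% of all genes. That of Nqo1 was -1.12 ± 0.21 (adjusted p = 0.00226), and that of Ugdh 0.58 ± 0.14 (adjusted p = 0.0297, but 0.145 by limma). By strain 2 of 9 passed in each sex, beside 23.8% of all genes in males and 24.4% in females. Nqo1 was lower in B6 males (-2.01 ± 0.15, adjusted p = 5.51e-12), and Hmox1, heme oxygenase, higher in B6 females (1.05 ± 0.23, adjusted p = 5.26e-04), each beside Slc7a11. Of 8 pericentral hepatocyte genes, among which glutathione S-transferases of mouse liver are known to be concentrated, 0 passed for sex with a fold above 2 by edgeR's quasi-likelihood test, DESeq2, edgeR's exact test or limma. In the first, 4 had an adjusted p under 0.05 in each strain, 7 in B6 and 8 in CAST had an unadjusted p under 0.05, and the median log2 difference was -0.53 in B6 and -0.33 in CAST. By strain 1 of 8 passed in each sex, and 1 of 8 for the interaction, beside the same shares of all genes as above. Oat, ornithine aminotransferase, was higher in CAST (-1.43 ± 0.17 in males and -1.22 ± 0.17 in females, adjusted p = 4.7e-08 and 6.69e-07), and the interaction passed for Axin2 (-1.47 ± 0.27, adjusted p = 0.00239), a Wnt target. The list medians are descriptions of the lists and not tests of them.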

How the data were processed

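PolyA RNA of 20 livers was sequenced as paired reads of 50 nt. Per the paper's methods, the authors aligned reads with TopHat, those of B6 against mm9 and those of CAST against a strain-specific version of it, and featureCounts assigned uniquely mapped reads to exons. The labels name TopHat2, featureCounts, edgeR and mm9. The deposited counts are unnormalized whole reads, with 1 table for each strain, and the deposited FPKM values were scaled by the authors for exon length and library size. The count tables also hold the authors' own fold changes and p-values, which were not used, and 24 further columns of scaled or pooled values were not used.

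Members and gene lists were chosen with earlier results of these data known. Sex was tested within a strain on 10 livers, and strain and the interaction on all 20, with edgeR 4.0.16 in R 4.3.3: TMM scaling, quasi-likelihood tests, and p-values adjusted (Benjamini-Hochberg) across every gene that had 1 read or more (25690, 24722 and 25779 genes). The joint fit left out 2028 genes listed for 1 strain only with FPKM above 0 in the other. A call needs a fold above 2 and an adjusted p under 0.05, and for the interaction the adjusted p alone. P-values weigh a difference against the spread between mice within groups. That spread was pooled over the groups of a fit and moderated across genes. The fits were tested on simulated data. Named are all members, the called genes of each list (at most the 3 largest changes per list and comparison, the rest of small counts being named after their values were seen) and the 3 nearest profiles of members called in both strains. The alternatives were DESeq2 1.42.0, edgeR's exact test, DESeq2 or library size scaling, filterByExpr, limma 3.58.1 on log2(FPKM + 0.1) or log2(FPKM + 1) or with a mean FPKM of 0.1 or more, the near copies summed, the fit of all livers, a replicate block, and each liver left out, and, added after the data were seen, CAST males 3 and 5 both left out and the block with filterByExpr. Python 3.11.15, pandas 2.3.3, scipy 1.17.1, Biopython 1.88 and matplotlib 3.10.9 were used. Totals of 7969482 to 35328573 counts set the precision of low genes. The counting's use of strand is not given in the sources used here.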

Additional observations from a re-analysis of the deposited data

Results flagged for a closer look

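Of 40 sets of 5 livers (10 members in 4 groups), 6 held a liver far from the other 4 by Dixon's test at its 95% critical value of 0.71 for the gap over the range, where chance gives about 1 in 20. CAST male 5 was low for Gsta2 (19.5 FPKM, gap 0.918 of the range) and for Gsta4 (14.3 FPKM, 0.772). CAST male 3 was high for Gstp1 (522 FPKM, 0.878) and for its neighbour Gstp2 (8.11 FPKM, 0.778). B6 male 3 was high for Gstp1 (630.0 FPKM, 0.775) and B6 male 4 for Gstp2 (3.73 FPKM, 0.733). For Gstp2, FPKM per count, scaled for library size and relative to the median of B6 livers, was 1.08 in B6 male 4. It was 0.762 to 0.936 in the other B6 males, so this flag rests on FPKM and was not tested on counts.

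The sex difference differed between the strains, by the interaction of strain and sex in edgeR, for Gstp2 (log2 2.0, adjusted p = 0.00763, all 5 males above all 5 females in both strains) and for Gstt3 (log2 1.12, adjusted p = 0.0363, all 5 females above all 5 males in both strains). The Gstp2 call was lost with the Gstp pair summed (0.90) and by limma (adjusted p = 0.0501 on log2(FPKM + 0.1)). The Gstt3 value lost its call in 14 of 20 fits that left out a liver.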

How the results depend on the processing

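Without 1 liver, B6 sex differences kept direction and call in 100 of 100 member fits, CAST ones in 90 of 100, strain differences in 182 of 200 in males and 200 of 200 in females, and interactions in 183 of 200. The number of members called with 1 liver left out was 4 to 4 for sex in B6, 3 to 5 for sex in CAST, 3 to 5 for strain in males, 3 to 3 for strain in females and 1 to 4 for the interaction. With the adjusted p alone it was 4 to 7, 6 to 8, 7 to 8 and 7 to 8 for the first 4. With CAST males 3 and 5 both left out, 3 members passed for sex in CAST.

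With limma on log2(FPKM + 1), 2 members passed for sex in CAST (4 by adjusted p, and 5 with a pseudocount of 0.1) and 0 for the interaction (0 also at 0.1, where Gstp2 had an adjusted p of 0.0501). The interaction was called for 1 member with DESeq2 size factors, library size scaling, filterByExpr or limma with a mean FPKM of 0.1 or more.

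With near copies summed, Gsta1 for sex in CAST became -0.02, and Gstp2 for strain 1.00 in males and 0.10 in females, since the sum follows the abundant partner. Gsta2 for sex in CAST became 0.07 with library size scaling, 0.18 without CAST males 3 and 5, and between -0.10 and 0.15 with 1 liver left out. In males, Gsta1 for strain became 0.42 with the replicate block (0.36 with the block and filterByExpr), 1.07 with limma on log2(FPKM + 0.1), with or without the FPKM minimum, 0.26 on log2(FPKM + 1), 1.47 without CAST males 3 and 5, and -0.53 to 1.76 with 1 liver left out. Gsta4 became -0.03 without CAST males 3 and 5 (-0.07 to 0.16 with 1 liver left out).

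The labels do not say that replicate numbers pair livers. Per the paper's methods, the livers of a group were collected over several days, with each strain and sex in every batch. The labels used here do not give the day of a liver, so that batch was not modelled. Correlations of the deviations of same-numbered livers ran from -0.026 to 0.267 (mean 0.059) between the B6 sexes and from -0.054 to 0.341 (mean 0.138) between the CAST sexes, and not every sample correlated best with its own number. The replicate block raised the members with an adjusted p under 0.05 for sex from 4 to 8 in B6 and from 8 to 9 in CAST (Gsta4, 0.286 to 0.0054), and all CAST genes from 1396 to 2754. Within a strain this block fit, with an infinite prior df, estimated no spread per gene. With the block and filterByExpr, a fit added after the data were seen, 4 and 6 members passed (Gsta4 in CAST 0.106, Gsta3 0.0725), and 1 for the interaction. The 4 in B6 held Gstm3 (0.0386) in place of Gsta1, which filterByExpr removed. Over all genes, limma on log2(FPKM + 0.1) and log2(FPKM + 1) called 317 and 151 in place of 617 for sex in B6, 292 and 148 in place of 508 in CAST, 3651 and 1710 in place of 6146 for strain in males and 3693 and 1709 in place of 6281 in females, and with the FPKM minimum 343, 321, 3331 and 3387 in the same order. DESeq2 called 1161 in place of 588 for the interaction, which was 356 without B6 female 3, 366 without CAST female 1 and 327 without CAST males 3 and 5. Low counts limit Gsta1, which filterByExpr removed for sex in both strains and the FPKM minimum in CAST, and, in B6 females, Gstp2. The cause of the other changes was not tested.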

Other observations

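BC021614, a gene near the Gstp pair on the minus strand of chromosome 19 (chr19:4057478-4059295 in NCBIM37, 15256 bases from Gstp2), was singled out after its values were seen. It was at 8.17 ± 1.12 FPKM (SD, n = 5) in B6 males and 7.47 ± 2.35 in B6 females, against 176 ± 15.1 in CAST males and 165 ± 30.7 in CAST females. The strain difference, B6 minus CAST, was -4.40 ± 0.19 on the log2 scale in males (adjusted p = 1.34e-17, edgeR) and -4.55 ± 0.19 in females (adjusted p = 9.14e-18). Its sex differences were 0.14 ± 0.18 in B6 (adjusted p = 0.721) and 0.01 ± 0.12 in CAST (adjusted p = 0.985).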
